A study of Mus musculus with 2 samples.

Results

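Immunoglobulin variable segments are the germline gene pieces that encode the antigen-binding domain of an antibody, and they are named Ighv in the heavy chain locus, Igkv in the kappa light chain locus and Iglv in the lambda light chain locus. The genes described are those whose symbol starts with one of these names and that held at least 50 UMIs (unique molecular identifiers, each counting 1 captured transcript) in both libraries together. This rule kept 71 of 346 annotated segments, 216 of which had any UMI, and the 71 held 94.8% of all segment UMIs. They comprise 29 Ighv segments of 183 on chr12:113572927-116010093, 39 Igkv segments of 160 on chr6:67555497-70704177 and all 3 Iglv segments on chr16:19085017-19260859 (GRCm38), and each is annotated as an immunoglobulin variable gene. Just inside the threshold lay Ighv1-12 with 50 UMIs, Ighv9-1 with 51 and Ighv3-1 with 52. Just outside it lay Igkv4-50 with 48, Igkv5-39 with 47 and Ighv1-39 with 47.

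The 2 libraries hold sorted leukocytes from lung metastases of B16F10, a mouse melanoma line, in C57 mice. In the first the tumour carried the C435A mutant of IRF7, a transcription factor of the interferon response, and in the second the tumour carried wild-type (WT) IRF7, and the hosts were C57 mice in both. Cells were sorted as CD45-positive and 7-AAD-negative, although the cell type label of both samples reads melanoma cell. There was 1 library per tumour genotype and the number of animals per library is not given, so no test between genotypes could be made, no p-value is given, and the intervals (95%) allow for counting error only.

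A developing B cell assembles each antibody chain by joining a variable segment to joining segments, with a diversity segment added in the heavy chain, and the joined exon is spliced to a constant gene. Allelic and isotypic exclusion normally leave a mature B cell with a single productive heavy chain and a single light chain, kappa or lambda, and mouse antibodies are mostly kappa. Plasma cells are the antibody-secreting descendants of B cells and transcribe their rearranged genes at a very high level. Segment usage can be read as the share of cells in which a given segment dominates. Class switching replaces Ighm, the constant gene of IgM, with a gene such as Igha (IgA) or Ighg1, Ighg2b and Ighg2c (subclasses of IgG), while the variable segment is kept.

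The segments on which the results turn are shown by the last 75 coding bases of the germline gene in the GENCODE annotation of GRCm38, because this end meets the joining segment. Capitals mark the last in-frame cysteine codon with the 2 codons before it, and letters after the capitals begin the third antigen-contacting loop.
The lambda segments, which differ most from each other in how many cells they dominated, read as follows.
Iglv1: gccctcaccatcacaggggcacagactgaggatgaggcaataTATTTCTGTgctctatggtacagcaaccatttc
Iglv2: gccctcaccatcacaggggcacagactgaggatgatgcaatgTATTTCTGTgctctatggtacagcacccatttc
Iglv3: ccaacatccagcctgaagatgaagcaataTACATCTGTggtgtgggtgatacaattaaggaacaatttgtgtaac
The most used kappa segments and a kappa segment with higher use among C435A B cells read as follows.
Igkv10-96: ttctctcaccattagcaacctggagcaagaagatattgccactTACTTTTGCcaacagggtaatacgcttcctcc
Igkv1-110: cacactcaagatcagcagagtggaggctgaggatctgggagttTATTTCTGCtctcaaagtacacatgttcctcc
Igkv12-44: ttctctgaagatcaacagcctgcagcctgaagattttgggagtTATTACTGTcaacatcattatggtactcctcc
The 5 most used heavy chain segments of plasma cells read as follows.
Ighv1-81: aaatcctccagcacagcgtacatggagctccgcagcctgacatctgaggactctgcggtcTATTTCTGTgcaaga
Ighv1-82: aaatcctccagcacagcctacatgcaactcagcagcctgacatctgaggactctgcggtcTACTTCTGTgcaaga
Ighv1-75: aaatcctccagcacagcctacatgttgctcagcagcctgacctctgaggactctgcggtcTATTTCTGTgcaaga
Ighv4-1: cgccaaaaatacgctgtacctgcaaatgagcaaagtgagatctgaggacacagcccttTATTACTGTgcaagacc
Ighv3-6: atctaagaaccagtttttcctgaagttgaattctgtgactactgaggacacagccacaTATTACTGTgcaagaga
In the printed order these stretches lie at chr16:19085017-19085091, chr16:19260401-19260475 and chr16:19241207-19241281 for the lambda segments, at chr6:68631963-68632037, chr6:68271193-68271267 and chr6:69814631-69814705 for the kappa segments, and at chr12:115920279-115920353, chr12:115952538-115952612, chr12:115833950-115834024, chr12:113948282-113948356 and chr12:114288152-114288226 for the heavy segments. Igkv1-110 is on the plus strand and the others are on the minus strand.

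Many segments are close copies, and a short read may not tell them apart. Of the 71 segments, 40 had another annotated segment at least 95% identical over the coding sequence, and the median identity to the closest segment was 95.4%. Iglv1 and Iglv2 were 96.9% identical, with 11 differences in 351 bases and a longest identical run of 104 bases, so the split of UMIs between them is uncertain. Ighv1-82 and Ighv1-80 were 95.4% identical, with 16 differences, and Ighv1-75 and Ighv1-81 were 90.3% identical. The segment closest to Ighv1-75 was Ighv1-84, at 96.3%. Ighv1-84 was not among the 71, so UMIs assigned to it did not enter the calls. The segments also lie far from the 3′ end of the transcript that the kit reads, and the deposited counts hold no junction sequence.

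Plasma cells were taken as cells with at least 10 UMIs of Mzb1, Xbp1 and Derl3 together, 3 genes of the secretory machinery. B cells were taken as the other cells with at least 2 UMIs of Cd79a and Cd79b, the signalling chains of the B cell receptor. The deposited matrices held 10373 and 10156 barcodes in the C435A and WT libraries, and 9427 and 9199 cells were kept after quality and doublet filters. Plasma cells numbered 274 in the C435A library (2.91% of kept cells) and 223 in the WT library (2.42%), with medians of 15934 and 20261 UMIs per cell. B cells numbered 2400 in the C435A library and 2828 in the WT library, with medians of 2202 and 1960 UMIs. The libraries shared 24 barcodes, none of which was a plasma cell in both and 2 of which were B cells in both.

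The class labels were checked against marker genes that the rules did not use. Jchain, which links IgA and IgM subunits, had a UMI in 97.8% of C435A plasma cells and 94.2% of WT plasma cells, and Sdc1, a surface marker of plasma cells, in 70.4% and 69.1%. Of 5 markers of plasmacytoid dendritic cells, Siglech was seen in 0.730% and 0.897%, Klk1 in 0.365% and 1.35%, Cox6a2 in 1.09% and 4.93%, Ccr9 in 22.6% and 12.6% and Bst2, an interferon-induced gene of many cell types, in 96.7% and 93.7%. Among B cells, Ms4a1 (CD20) had a UMI in 80.2% of C435A cells and 79.1% of WT cells. Markers of other cells were unequal between the plasma classes: at least 2 UMIs of 4 melanoma genes were found in 19 C435A cells (6.93%) and 53 WT cells (23.8%), and the summed level of those genes was 1479 CPM and 4186 CPM (UMIs of the gene scaled by the total of its class). The 4 monocyte and macrophage genes summed to 1075 CPM in the C435A plasma class and 4308 CPM in the WT plasma class, with none at 0, and the 3 neutrophil genes to 23.9 CPM and 127 CPM. A further measure of purity was light chain constant RNA. At least 100 UMIs of Igkc, Iglc1, Iglc2 and Iglc3 together were held by 251 C435A plasma cells (91.6%) and 173 WT plasma cells (77.6%). The other 23 C435A and 50 WT cells had a median of 1 Jchain UMI in each library. At least 2 monocyte and macrophage UMIs were found in 22 and 50 of them, and at least 2 melanoma UMIs in 8 and 27. They stay in the plasma class. The part of these other transcripts in the results below was not tested, except where a value without such cells is given. At least 2 UMIs of 5 cell division genes were found in 166 C435A plasma cells (60.6%) and 96 WT plasma cells (43.0%). The part of dividing cells in the results was not tested.

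Variable segment RNA was concentrated in the plasma cells of both libraries. Plasma cells held 90.2% of the members' UMIs in the C435A library and 93.5% in the WT library, and B cells held 8.23% and 4.92%. At least 1 Ighv UMI was found in 73.4% of C435A plasma cells and 58.3% of WT plasma cells, and at least 1 light chain variable UMI in 89.1% and 80.7%. In cells with no UMI of Cd79a or Cd79b, the background for free RNA, a light chain variable UMI was found in 1.58% of C435A cells and 2.53% of WT cells, at median depths of 3445 and 2924 UMIs. The corresponding shares in B cells were 15.4% and 15.9%. In sums over a class, fewer cells that express a segment and less RNA per cell cannot be told apart.

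A cell was assigned to a segment when that segment had strictly the most UMIs among the members of its chain. The segment needed at least 10 UMIs in a plasma cell or 2 in a B cell. Among plasma cells a heavy segment was called in 70 C435A cells (25.5%) and 81 WT cells (36.3%), and a light segment in 160 C435A cells (58.4%) and 143 WT cells (64.1%). Median totals of heavy-called and uncalled cells were 16041 and 15934 UMIs in the C435A library and 20912 and 19740 UMIs in the WT library. For light calls they were 15245 and 17897 UMIs in the C435A library and 20294 and 20096 UMIs in the WT library.

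Iglv1 was the dominant light chain segment in most called plasma cells of both libraries. It dominated in 116 C435A cells (72.5%, interval 64.9% to 79.3%) and 89 WT cells (62.2%, interval 53.8% to 70.2%), a difference of 10.3 points whose interval of -0.283 to 20.6 points includes 0. The difference was -7.05 points without cells with monocyte, neutrophil, T cell or melanoma markers and -1.64 points by summed UMIs. By monocyte and macrophage UMIs alone, the marker filter dropped 138 of 274 C435A plasma cells and 197 of 223 WT plasma cells. The value of -7.05 points thus rests on few WT cells. No plasma cell of either library was assigned to Iglv2 or Iglv3. The next light segments were used by few cells: Igkv10-96 dominated in 3 C435A cells and 6 WT cells, and Igkv1-110 in 1 C435A cell and 7 WT cells.

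The constant genes of the same cells did not follow Iglv1. A cell was counted as kappa type when at least 90% of 100 or more light chain constant UMIs came from Igkc, the kappa constant gene, and as lambda type when at least 90% came from Iglc1, Iglc2 and Iglc3. This rule was chosen after the Iglv1 counts were seen. Plasma cells were of kappa type in 236 C435A and 157 WT cases, of lambda type in 7 C435A and 9 WT cases, and mixed in 8 and 7. The remaining 23 C435A and 50 WT cells had under 100 such UMIs. Of the cells in which Iglv1 dominated, 108 C435A cells (93.1%, interval 86.9% to 97.0%) and 82 WT cells (92.1%, interval 84.5% to 96.8%) were of kappa type.

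These Iglv1-dominated cells carried abundant Igkc and almost no Iglc1, the constant gene next to which Iglv1 is usually joined. Their median UMIs per cell were 30 for Iglv1, 4331 for Igkc and 7 for Iglc1 in the C435A library, and 55 for Iglv1, 6764 for Igkc and 14 for Iglc1 in the WT library. Iglc1 had no UMI in 26 C435A and 14 WT cells of this kind. The C435A plasma cell with the most Iglv1 held 436 Iglv1 UMIs with 10774 of Igkc and 17 of Iglc1, and it also held 111 kappa variable UMIs led by Igkv3-7. The WT cell with the most held 512 Iglv1 UMIs with 30701 of Igkc and 11 of Iglc1, and the next WT cell held 509 Iglv1 UMIs with 12016 of Igkc and 1 of Iglc1. A kappa segment could also be called in 57 of the C435A cells and 59 of the WT cells, with 21 and 29 different kappa segments among them.

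**Figure D1:**
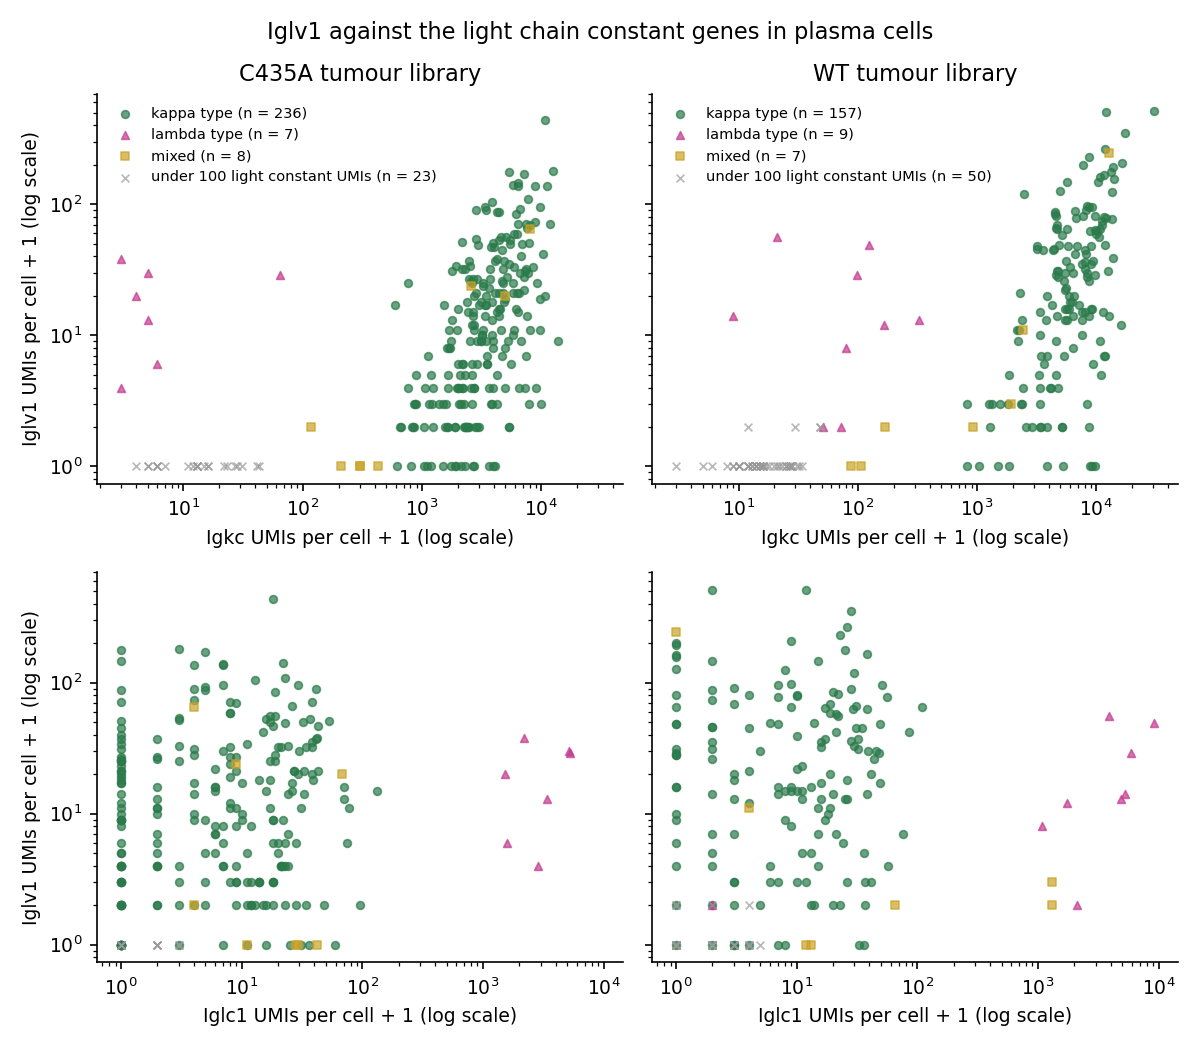
Iglv1 UMIs per plasma cell against Igkc (top) and Iglc1 (bottom), both as UMIs + 1 on log axes, for the C435A library (left) and the WT library (right); each point is a cell and its shape gives the light type. Kappa-type cells reach 436 Iglv1 UMIs in the C435A library and 512 in the WT library at high Igkc, while the 7 and 9 lambda-type cells stand apart at low Igkc.

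The lambda-type cells gave a comparison within each library. In the 7 C435A lambda-type cells Iglv1 had a median of 19 UMIs beside 2841 of Iglc1, and in the 9 WT cells 12 UMIs beside 3866 of Iglc1. That was 0.607 Iglv1 UMIs per 100 Iglc1 UMIs in the C435A library and 0.517 in the WT library, against 200 and 319 in kappa-type cells. Kappa segments in kappa-type cells had 0.316 UMIs per 100 Igkc UMIs in the C435A library and 0.323 in the WT library. Lambda-type cells held 2.16% of plasma Iglv1 UMIs in the C435A library and 2.19% in the WT library, and kappa-type cells held 96.1% and 94.5%.

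Iglv1 was spread over nearly all kappa-type cells rather than held by a few of them. At least 1 Iglv1 UMI was found in 93.2% of C435A kappa-type cells and 94.3% of WT kappa-type cells, with medians of 10 and 21 UMIs. The plasma-rule cells with under 100 light constant UMIs had a higher median depth, 26758 UMIs in the C435A library and 28911 in the WT library. Of these, 0 of 23 C435A cells had an Iglv1 UMI (upper bound 14.8%), and 4 of 50 WT cells (8%) had exactly 1 UMI each. Across plasma cells the Spearman correlation of Iglv1 with Igkc was 0.65 in the C435A library and 0.75 in the WT library (274 and 223 cells). With Iglc1 it was 0.22 and 0.33. These include the 23 and 50 cells with under 100 light constant UMIs, whose median Igkc was 12 and 14 UMIs. A correlation within kappa-type cells alone was not computed. The cells of each correlation share a library, and the correlation of Iglv1 with total UMIs was -0.16 in the C435A library and -0.04 in the WT library.

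Iglv1 levels also differed among the heavy chain classes of kappa-type cells. The median was 24.5 UMIs in C435A and 42.5 in WT cells with Ighg1, and 16 in C435A and 56 in WT cells with Ighg2c. It was 10 and 14 UMIs in cells with Ighm, and 5.5 and 14 in cells with Igha. The longest stretch of identical bases between Iglv1 and Igkc was 7 on the same strand and 8 on the opposite strand, and with any kappa segment described here it was 12. What gives rise to Iglv1 UMIs in kappa-type cells was not tested. Because Iglv1 UMIs were present in nearly every kappa-type cell, kappa usage is given below also with the Iglv segments set aside, a choice made after the data were seen.

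Iglv3, a lambda segment unlike the other pair in sequence, had 408 UMIs in the C435A library and 563 in the WT library, and Iglv2 had 23 and 52. The cell with the most Iglv3 held 2.66% of the segment's UMIs in the C435A library and 3.14% in the WT library, the lowest values of all members with at least 50 UMIs in kept cells of that library. Iglv3 RNA was thus present at a low level in many cells and dominated in none of the plasma cells.

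Heavy chain calls of plasma cells could fall only on the 29 heavy members, out of 183 annotated segments. Of 29 segments compared without adjustment, 2 were used more in the C435A library and 1 more in the WT library beyond counting error. The intervals take each cell as independent, so related cells would make them too narrow, and whether cells were related was not tested. Ighv1-81, of the large Ighv1 family, was used by 12 C435A cells (17.1%) and 12 WT cells (14.8%), and Ighv4-1 by 8 (11.4%) and 9 (11.1%), with differences of 2.33 points (interval -9.36 to 14.5) and 0.317 points (interval -9.97 to 11.2). Ighv1-82 was used by 11 C435A cells (15.7%) and 2 WT cells (2.47%), a difference of 13.2 points with an interval of 4.18 to 23.7. Ighv3-6 was used by 9 C435A cells (12.9%) and 2 WT cells (2.47%), a difference of 10.4 points with an interval of 1.88 to 20.4. In the other direction, Ighv1-75 was used by 0 C435A cells (upper bound 5.13%) and 12 WT cells (14.8%, interval 7.90% to 24.4%), a difference of -14.8 points with an interval of -24.1 to -6.77.

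The Ighv1-75 difference kept an interval below 0 without cells that held melanoma transcripts, at -13.4 points, and lost it when 20 UMIs were required (-15.2 points, interval -28.2 to 0.140). The Ighv1-82 interval included 0 both at a minimum of 5 UMIs (5.13 points, interval -1.80 to 11.7) and at 20 UMIs (7.65 points, interval -5.20 to 25.9). The Ighv3-6 interval included 0 without melanoma-transcript cells (9.32 points, interval -0.0571 to 19.7).

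The differences of all other heavy segments had intervals that included 0. Ighv6-3 was used by 6 C435A cells (8.57%) and 4 WT cells (4.94%), Ighv8-8 by 5 (7.14%) and 6 (7.41%), Ighv1-80 by 3 (4.29%) and 6 (7.41%), and Ighv9-3 by 2 and 4. By family, Ighv1 segments made up 51.4% of C435A and 55.6% of WT calls, and Ighv3 segments 15.7% and 2.47%. In all 27 of the 29 heavy members were used by at least 1 plasma cell, 13 in both libraries, 4 in the C435A library alone and 10 in the WT library alone. The segments seen in the C435A library alone were used by 2 cells each. Of those seen in the WT library alone, Ighv1-75 was used by 12 cells and the others by at most 4. How many segments would be seen in a single library through the sampling of few cells was not tested.

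**Figure D2:**
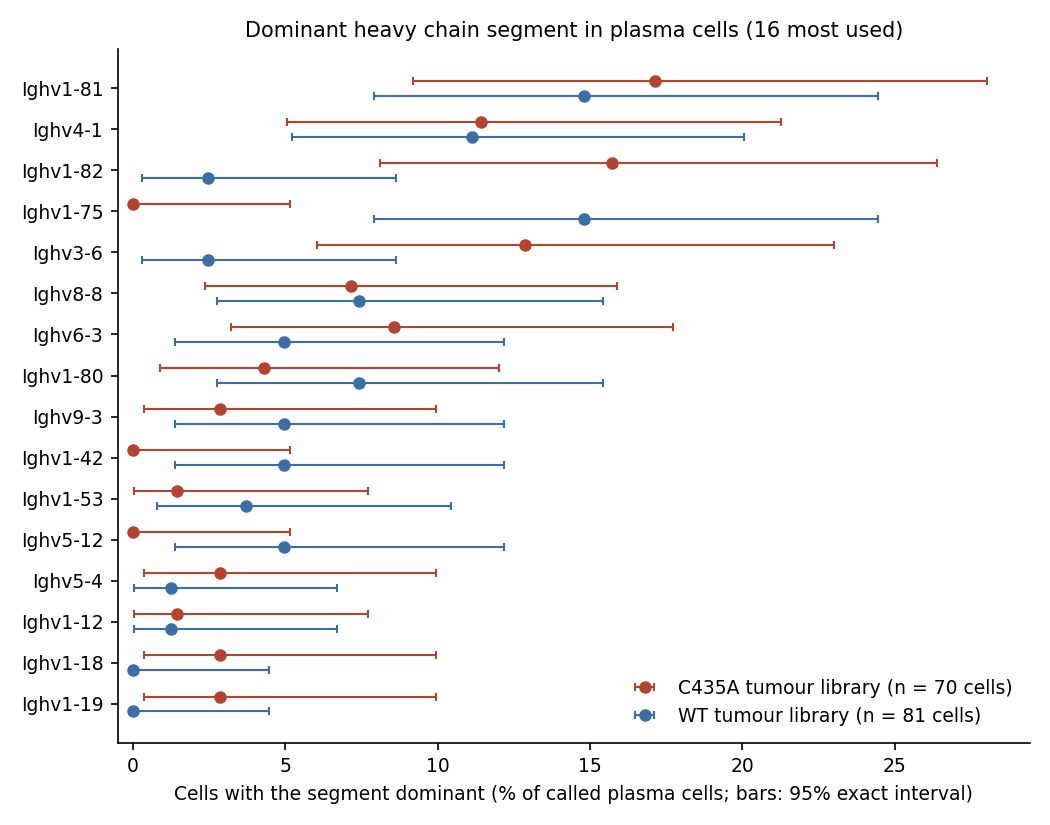
Share of heavy-called plasma cells (percent, horizontal axis) for each of the most used heavy chain segments, with the C435A library above the WT library for each segment and 95% exact intervals as bars. Ighv1-82 and Ighv3-6 have 15.7% and 12.9% in the C435A library against 2.47% each in the WT library, and Ighv1-75 has 0 against 14.8%.

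The summed UMIs of these segments were also counted. They include the UMIs by which the cells were called, so they are not a separate measure of usage. For Ighv1-75, Ighv1-82 and Ighv3-6 the same library was higher as in the cell counts. Ighv1-75 had 5 UMIs in 2 C435A plasma cells, at most 3 in a cell, and 269 UMIs in 14 WT plasma cells, at most 38 in a cell. Ighv1-82 had 197 UMIs in 17 C435A cells and 63 in 4 WT cells. Ighv3-6 had 206 UMIs in 17 C435A cells and 42 in 4 WT cells. Ighv1-81 had 253 UMIs in 24 C435A cells and 274 in 19 WT cells, and Ighv4-1 had 205 in 11 and 344 in 11. Cell counts and summed UMIs differed in order for Ighv6-3, with 104 C435A UMIs and 193 WT UMIs, and for Ighv8-8, with 207 and 131.

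The WT Ighv1-75 cells shared their constant genes. Of the 12 cells, 10 expressed Ighg1 as the leading heavy constant gene and 2 expressed Ighg2b, and all 12 were of kappa type. These 10 cells were most of the 12 Ighg1 cells in the WT plasma class. Ighv1-75 ran from 10 to 38 UMIs in the 12 cells, with a median of 25, Igkc from 2290 to 6664 UMIs, with a median of 4290, and Iglv1 from 6 to 126 UMIs, with a median of 42.5. The 10 Ighg1 cells had few kappa variable UMIs despite this Igkc level: over all 160 Igkv segments they had 0 to 9 UMIs per cell, with a median of 3, and no kappa segment was called in any of them. At least 2 UMIs of the monocyte and macrophage markers were found in all 12 cells, with up to 72 in a cell, and at least 2 melanoma UMIs in 3 cells.

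The C435A Ighv1-82 cells included a group that also had Ighg1 and few kappa variable UMIs. Of 11 cells, 6 expressed Ighg1, 3 Igha and 2 Ighg2b, and the 6 were most of the 10 Ighg1 cells of that plasma class. In these 6 cells Igkc ran from 1507 to 5348 UMIs, with a median of 2865, while all 160 Igkv segments together had 0 to 2 UMIs, with a median of 1.5. At least 2 monocyte and macrophage UMIs were found in 3 of the 6, with at most 3 in a cell, and their median Iglv1 was 14 UMIs. The 3 Igha cells each had a kappa call, Igkv10-96 in 2 of them and Igkv19-93 in the other. Kappa-type cells with another heavy constant gene and a heavy call had a median of 18 Igkv UMIs beside 5840 of Igkc in the C435A library, and 23 beside 8249 in the WT library.

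Ighv3-6 in the C435A library was spread over more constant genes. Its 9 cells expressed Ighg2c in 3, Ighg1 in 2, Ighg2b in 2, Ighg3 in 1 and Ighm in 1, with Igkc from 3519 to 7434 UMIs, and a kappa segment was called in 7 of them. Ighv1-81 cells had Igha in 6 C435A and 7 WT cells and Ighg2c in 5 and 4. Ighv8-8 was found with Ighg2c in all 5 C435A cells and with Igha in all 6 WT cells.

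Over the whole plasma class, a leading heavy constant gene could be called in 252 C435A cells and 180 WT cells. Igha led in 102 C435A cells (40.5%) and 93 WT cells (51.7%), a difference of -11.2 points with an interval of -20.5 to -1.67. Ighg2c led in 72 C435A cells (28.6%) and 36 WT cells (20%), and Ighm in 29 (11.5%) and 11 (6.11%).

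The share of cells that could be called for a segment differed between libraries within the kappa type. A heavy segment was called in 27.5% of C435A kappa-type cells (interval 21.9% to 33.7%) and 49.0% of WT kappa-type cells (interval 41.0% to 57.1%), and a kappa segment in 41.9% and 70.1%. The median Igkc count of these cells was 3378 UMIs in the C435A library and 5954 in the WT library, so the usage figures rest on a larger part of the WT cells.

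With Iglv set aside, kappa segments were called in 101 C435A plasma cells (36.9%) and 113 WT plasma cells (50.7%), and usage was spread over many segments. Igkv10-96 was used by 11 C435A cells (10.9%) and 10 WT cells (8.85%), and Igkv1-110 by 8 (7.92%) and 10 (8.85%). Igkv12-46 was used by 6 C435A and 8 WT cells, Igkv19-93 by 8 and 6, and Igkv15-103 by 5 and 5. The intervals of all 5 differences included 0, and that of Igkv10-96 ran from -6.12 to 10.6 points around 2.04. Of the kappa segments, Igkv3-4 alone had an interval for its difference that excluded 0, with no adjustment over the 39 segments compared. It was used by 5 C435A cells (4.95%) and 0 WT cells, a difference of 4.95 points (interval 0.621 to 11.1). With Iglv counted, 5 and 0 cells gave a difference of 3.125 points, and its interval of -0.0409 to 7.11 included 0. With Iglv set aside, Igkv1-117 was used by 6 C435A and 4 WT cells, Igkv5-43 by 5 and 1, Igkv1-135 by 2 and 7, and Igkv8-19 by 0 and 4.

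**Figure D3:**
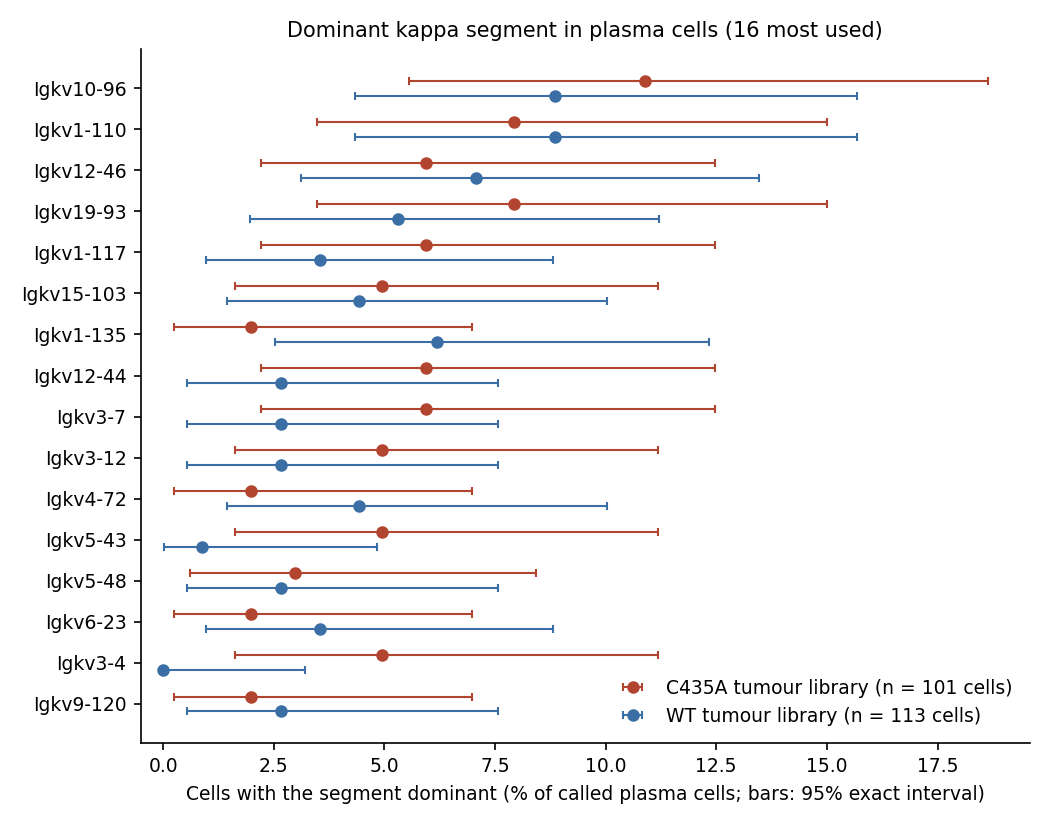
Share of kappa-called plasma cells (percent, horizontal axis) for the most used kappa segments with the lambda segments set aside, with the C435A library above the WT library and 95% exact intervals as bars. Igkv10-96 leads with 10.9% in the C435A library and 8.85% in the WT library, and the intervals of most segments overlap.

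Counting Iglv with the kappa segments changed the Igkv1-110 comparison. With Iglv counted, Igkv1-110 led in 1 C435A and 7 WT cells, a difference of -4.27 points with an interval of -9.16 to -0.491. With Iglv set aside the difference was -0.929 points, with an interval of -8.64 to 7.06. Igkv1-110 cells mostly expressed Igha, in 7 of 8 C435A cells and 8 of 10 WT cells.

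Usage was most skewed among light segments with Iglv1 counted and less so among heavy and kappa segments. The inverse Simpson index, the number of equally used segments that would give the same chance of drawing a segment again, was 1.89 in C435A and 2.55 in WT plasma cells for all light segments, and 22.1 and 27.8 for kappa segments with Iglv set aside. For heavy segments it was 11.03 in the C435A library and 14.15 in the WT library. The 5 most used heavy segments took 65.7% of C435A calls (interval 53.4% to 76.7%) and 55.6% of WT calls (interval 44.1% to 66.6%), and these intervals overlap. Heavy calls covered 17 segments in the C435A library and 23 in the WT library, or 21.7 in the WT library at the same 70 cells. Kappa calls covered 26 and 34 segments, or 33.1 in the WT library at the same 101 cells.

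Within a plasma cell the heavy UMIs of the members nearly always came from a single segment. Segments outside the members were not counted, and the members held 83.8% of all Ighv UMIs and 92.2% of all Igkv UMIs. At least 90% of a cell's member Ighv UMIs came from its dominant segment in 69 of 70 C435A cells (98.6%) and 77 of 81 WT cells (95.1%). All of them did in 66 and 73 cells. The light chain with Iglv counted did not reach this: the same threshold was met in 16.2% of C435A cells and 15.4% of WT cells, the median dominant share was 74.6% and 73.1%, and a second segment held at least 20% in 82 C435A cells (51.2%) and 77 WT cells (53.8%). With Iglv set aside, 83 C435A cells (82.2%) and 92 WT cells (81.4%) met it, with a median dominant share of 100% in both libraries. A second kappa segment with at least 20% remained in 5 C435A cells and 11 WT cells.

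**Figure D4:**
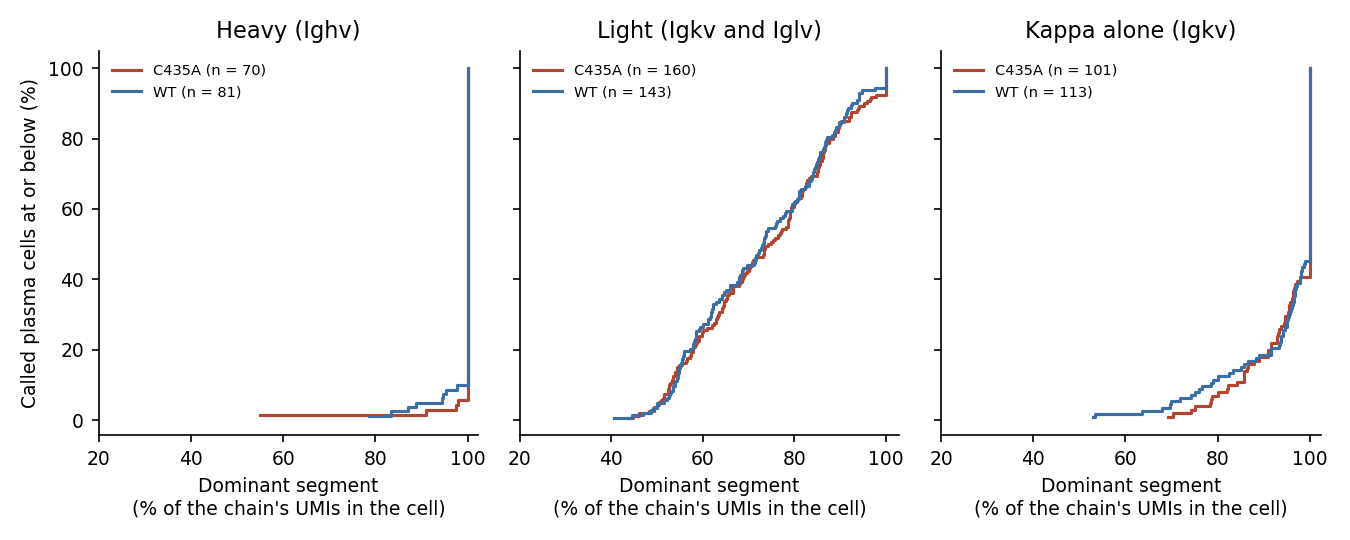
Cumulative share of called plasma cells (percent, vertical axis) by the dominant segment's percent of the cell's member UMIs of that chain (horizontal axis). Panels show the heavy chain (left), all light segments (middle) and kappa segments with Iglv set aside (right), with a line for each library. Heavy chain cells lie at or near 100% in both libraries, all light segments have medians of 74.6% and 73.1%, and kappa segments with Iglv set aside have a median of 100% in each.

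Cells with both a heavy and a kappa call were few, and some combinations recurred. There were 45 such C435A plasma cells with 24 combinations and 57 such WT cells with 42 combinations. A combination was seen in a single cell in 13 C435A and 31 WT cases. The libraries shared 5 combinations, which were 20.8% of those in the C435A library and 11.9% of those in the WT library. The most frequent combination in each library held 5 cells, or 11.1% of the C435A cells (interval 3.71% to 24.1%) and 8.77% of the WT cells (interval 2.91% to 19.3%). No V-D-J junction was read, so cells with the same combination are not called a clone.

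Ighv1-81 with Igkv1-110 was found in 4 C435A cells and 5 WT cells, with Igha in 4 cells of each library. Ighv6-3 with Igkv3-7 was found in 5 C435A cells and 0 WT cells, Ighv3-6 with Igkv12-44 in 4 and 0, and Ighv1-81 with Igkv1-117 in 3 and 0. Ighv8-8 with Igkv10-96 was found in 4 C435A cells, all with Ighg2c, and in 1 WT cell with Igha. Ighv4-1 with Igkv3-7 was found in 0 C435A cells and 3 WT cells.

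Ighv4-1 was the segment of most lambda-type cells with a heavy call. It was called in 3 of 4 such C435A cells and 3 of 3 such WT cells, against 5 of 65 kappa-type C435A cells (7.69%) and 6 of 77 kappa-type WT cells (7.79%). Igha led in 7 of the 7 C435A lambda-type cells and 7 of the 9 WT lambda-type cells, and the lambda-type cell with the most Iglc1 in each library, 5235 UMIs in the C435A library and 9225 in the WT library, had Ighv4-1 with Igha.

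Single cells made up a large part of some segments' RNA. Among members with at least 50 UMIs in kept cells, 36 in the C435A library and 43 in the WT library, the cell with the most UMIs was always a plasma cell. It held a median of 21.3% of the segment's UMIs in the C435A library and 32.0% in the WT library, with ranges of 2.66% to 60.6% and 3.14% to 77.1%. More than 50% came from a single cell for 1 C435A segment and 8 WT segments, and more than 25% for 14 and 28. The highest shares were those of Ighv8-12 (77.1%), Igkv12-98 (61.8%), Ighv5-16 (58.3%) and Igkv14-111 (53.9%) in the WT library and of Igkv8-24 (60.6%) in the C435A library. Segments used by many cells had low values: Iglv1 6.58% in the C435A and 6.22% in the WT library, Ighv1-81 12.6% and 21.1%, and Ighv1-75 13.2% in the WT library. A difference in summed UMIs of a segment with a high single-cell share can therefore rest on 1 cell.

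**Figure D5:**
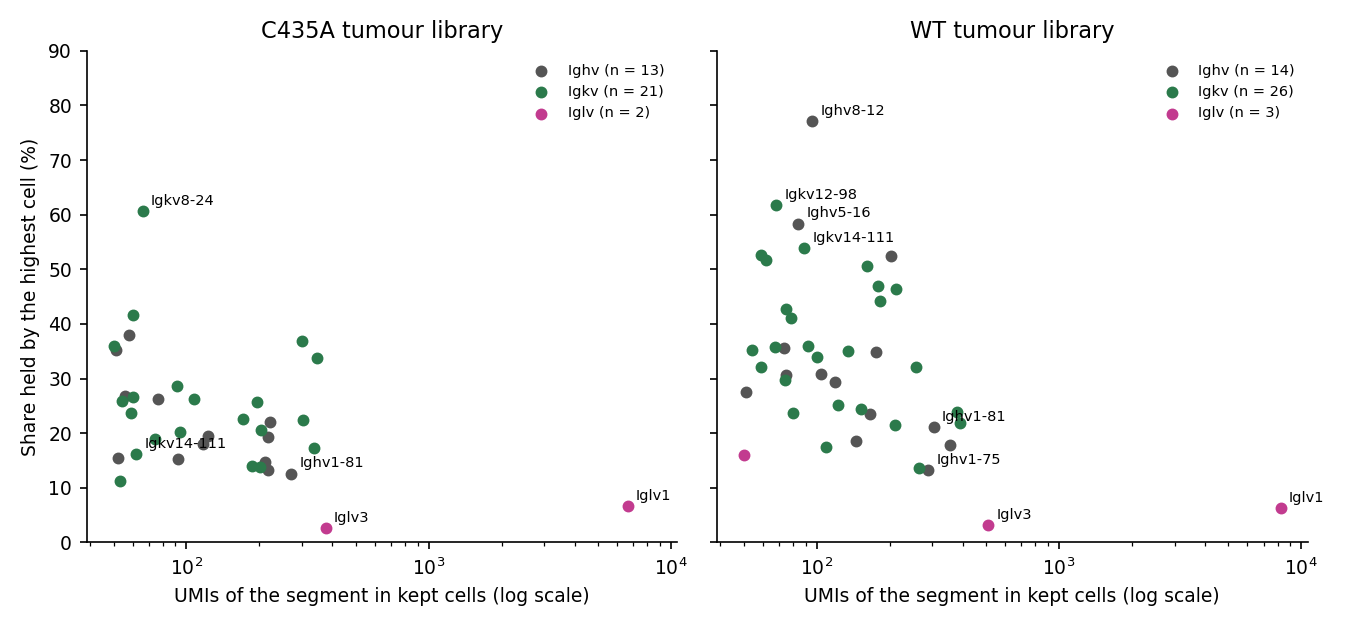
Share of each segment's UMIs held by its highest cell (percent, vertical axis) against the segment's UMIs in kept cells of the library (log axis), for the C435A library (left) and the WT library (right), with heavy, kappa and lambda segments marked. The shares run from 2.66% to 60.6% in the C435A library and from 3.14% to 77.1% in the WT library, and the lambda segments Iglv1 and Iglv3 lie at the low end.

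The summed level of each segment over the plasma class was compared as CPM, for genes with at least 50 UMIs over both libraries in that class. Of the 71 members 57 were measured at this depth, of which 12 were more than 2-fold higher and 20 more than 2-fold lower in the C435A library; over all 9896 genes 1.9% were past 2-fold higher and 8.36% past 2-fold lower, or 10.3% in either direction. By chain, 5 of 21 heavy members were higher and 8 lower, 7 of 34 kappa members higher and 12 lower, and neither of 2 lambda members moved that far. The median log2 ratio was -0.38 over the measured members and -0.04 over all genes. Without melanoma-transcript cells, 9 of 54 members were higher and 22 lower, against 4.71% and 3.74% of all genes (8.45% in either direction), and the median log2 ratio was -0.73 over the measured members and 0.26 over all genes. Without the highest cell of each segment in each library, 34 members were measured and 17 were past 2-fold in either direction, 8 of them higher and 9 lower. The share over all genes was not counted in that setting.

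The most abundant segment, Iglv1, was slightly lower in the C435A plasma class, and the others ranged widely. Iglv1 was at 1157 CPM in C435A and 1370 CPM in WT plasma cells (log2 ratio -0.24, interval -0.29 to -0.20), and at a log2 ratio of -0.49 without melanoma-transcript cells. The log2 ratio was 0.02 for Ighv1-81, -0.61 for Ighv4-1, -1.18 for Igkv12-46, -0.01 for Igkv10-96 and -0.33 for Iglv3. Without melanoma-transcript cells it was -0.46 for Ighv1-81, -0.79 for Ighv4-1, -1.33 for Igkv12-46, -0.74 for Igkv10-96 and -0.71 for Iglv3. Ighv1-82 and Ighv3-6, whose usage was higher in the C435A library beyond counting error, had log2 ratios of 1.78 and 2.43, and Ighv1-75 had -5.61. Igkv3-4, whose usage was higher beyond counting error only with Iglv set aside, had 5.55. Igkv5-43, with 290 C435A UMIs and 16 WT UMIs, had 4.32. Ighv1-42 had 0 C435A UMIs and 111 WT UMIs, Igkv8-19 had 0 and 78, and Ighv1-18 had 52 and 0. With the count of 0 set to a floor of 3 UMIs, their log2 ratios were -5.07, -4.56 and 4.25. The interval ends nearest 0 were -4.75, -4.23 and 3.90.

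The constant genes and the genes of segment joining were compared in the same way. Of a list of 20 such genes, 14 were measured in plasma cells, 1 was past 2-fold higher, none was past 2-fold lower, and the median log2 ratio was -0.07. Without melanoma-transcript cells 1 was past 2-fold higher and 3 were past 2-fold lower, Ighg1 at -1.49, Ighg3 at -1.29 and Iglc1 at -1.32, with a median of -0.42. The gene past 2-fold higher over all plasma cells was Ighe, the constant gene of IgE, with 67 UMIs in the C435A library and 1 in the WT library. Over all plasma cells Igkc had a log2 ratio of -0.06, Igha of -0.54, Ighm of 0.64, Ighg1 of -0.93, Iglc1 of -0.50 and Jchain of -0.09. Rag1 and Rag2, which cut DNA at the segments, and Igll1, a surrogate light chain gene, had 0 UMIs in the plasma cells of both libraries, and each count of 0 allows up to 3 UMIs.

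B cells held few variable UMIs per cell, and their calls rest on small numbers. Markers of other cells were unequal here too: the monocyte and macrophage genes summed to 1226 CPM in C435A B cells and 5064 CPM in WT B cells, the melanoma genes to 629 and 1350 CPM and the T cell genes to 344 and 163 CPM, and their part in the B cell results was not tested. A light segment was called in 51 C435A cells and 46 WT cells and a heavy segment in 14 and 8. Iglv1 led in 12 C435A cells (23.5%) and 7 WT cells (15.2%), a difference of 8.31 points with an interval of -7.81 to 23.6. Igkv12-44 led in 7 C435A cells and 1 WT cell, a difference of 11.6 points with an interval of 0.0738 to 23.7. Igkv14-111 led in 1 C435A cell and 4 WT cells, Igkv3-12 in 1 and 4, and Igkv5-43 in 2 and 3. Among heavy calls Ighv1-80 led in 3 C435A cells and 1 WT cell, Ighv1-22 and Ighv8-8 in 2 and 0 each, Ighv1-18 in 1 and 1, and Ighv1-12 in 0 and 1. At least 90% of the cell's light variable UMIs of members came from a single segment in 38 of 51 C435A cells (74.5%) and 37 of 46 WT cells (80.4%).

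Part of this B cell signal came from cells with Jchain RNA. In the 64 C435A and 50 WT B cells with at least 10 Jchain UMIs lay 59.8% and 28.8% of the Iglv1 and kappa variable UMIs, and 321 of 397 C435A and 61 of 147 WT Iglv1 UMIs. Over all B cells Iglv1 was seen more often where Iglc1 was high: a UMI was found in 19.0% of C435A and 19.0% of WT cells with at least 20 Iglc1 UMIs (15 of 79 and 22 of 116), against 2.83% and 2.08% of cells with at most 2.

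In summed level, 5 members were measured in B cells and 4 were more than 2-fold higher in the C435A library, against 1.03% of all genes. These were Iglv1 (397 C435A UMIs and 147 WT UMIs, log2 ratio 1.49), Igkv5-43 (52 and 13, 2.05), Igkv3-12 (57 and 18, 1.72) and Igkv12-44 (46 and 20, 1.26), while Iglv3 had 62 and 73 UMIs and a log2 ratio of -0.18. None was past 2-fold lower, against 4.54% of all genes and 5.57% in either direction. Outside the Jchain-rich cells the Iglv1 counts were 76 UMIs in 2336 C435A cells and 86 UMIs in 2778 WT cells. Without the highest cell of each segment and library 3 members were measured, and Iglv1 (271 and 111 UMIs, log2 ratio 1.34) and Igkv12-44 (36 and 18, 1.05) were past 2-fold. The share over all genes was not counted in that setting. Of the joining and constant genes, Ighg1 alone was past 2-fold in B cells, with 372 C435A UMIs and 1462 WT UMIs (log2 ratio -1.92).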

How the data were processed

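The values are UMI counts per gene and cell barcode, as the authors deposited them. Per the labels' protocols, digested lung metastases were sorted for live CD45-positive cells. The labels name both BD Rhapsody and the 10x Chromium 3′ kit (V3), so the capture platform is uncertain. Reads were processed with Cell Ranger 7.2.0, per the file headers, on GRCm38, per the submitters' processing notes; the sources used here name neither the annotation release nor the number of animals. The other deposited text tables were not used.

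The segments, lists and rules were chosen with earlier results of these data known. Barcodes with fewer than 200 genes, fewer than 500 UMIs or a mitochondrial share of 20% or more were dropped, 102 in the C435A library and 157 in the WT library. Doublets, called by Scrublet (scanpy 1.11.5) at a rate of 0.8% per 1000 barcodes, were dropped next, 844 and 800. Total depth was 59615672 UMIs for the C435A library (median 3401 per barcode) and 54934397 for the WT library (median 2785). Cells with 1 UMI of Cd79a and Cd79b and outside the plasma rule belong to no class.

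Shares have exact Clopper-Pearson intervals, differences of shares Newcombe intervals and ratios of summed counts exact conditional intervals, computed with scipy 1.17.1 and numpy 2.4.6. UMIs without their cell-to-cell spread underlie these intervals. Genes were compared from 50 UMIs in a class, a fold was counted past 2, and a count of 0 was set to 3. TMM factors (edgeR 4.0.16) and median-ratio factors (DESeq2 1.42.0) in R 4.3.3 served as other scalings only. Named segments are the 5 most used per class and chain, the 3 with the largest difference in each direction and the 5 with the highest single-cell share, 27 in all; others named were chosen after their values were seen. Sequences come from GENCODE for GRCm38. Alternatives covered the UMI minimum, the dominance required, filters, doublets, other cell markers, depth, the member minimum and summed UMIs. On simulated data with 29 heavy segments and few stray UMIs, the dominant segment was right in 100% of 284 called of 300 cells. The intervals of simulated plasma cell ratios over 9896 genes covered the true value for 94% of changed and 95.9% of unchanged genes. The simulation held no light segments, no reads shared between close copies and no cell-to-cell spread. It therefore checks the calculation and not the accuracy of the calls or intervals in these data.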

Additional observations from a re-analysis of the deposited data

How the results depend on the processing

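Of 267 alternative values for 27 results, 228 lay within the counting interval of the reported value (for counts of members, within 1.5 times of it) and the others, 38 and 1 that reversed a called difference, lay outside it; the cause was not tested. Of 92 alternative values for 9 differences in usage, 8 changed sign, in Ighv1-81, Ighv4-1, Iglv1 and Igkv1-110; of these the Igkv1-110 difference alone had a reported interval that excluded 0. No paired analysis was possible because there is 1 library per tumour genotype and the labels give no replicate numbers. Thinning to 1000 UMIs, or leaving out plasma cells with T cell, plasmacytoid or melanoma markers, left under 10 called cells in a library and gave no shares, and so did heavy calls in the WT library once cells with monocyte, neutrophil, T cell or melanoma markers were left out. Depth limits the B cell calls and every segment used by fewer than about 5 cells; TMM and median-ratio scaling raised log2 ratios by 0.04 in plasma cells and 0.03 in B cells.

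In plasma cells, the share of light calls that were lambda was 81.0% in the C435A library and 74.5% in the WT library at a minimum of 20 UMIs, and 79.4% and 70.9% where the dominant segment needed at least 80%. For the WT library it was 71.9% with members of at least 200 UMIs, 70.4% by summed UMIs and 75% without cells with monocyte, neutrophil, T cell or melanoma markers. The top 5 heavy segments took 46.2% of C435A calls at a minimum of 5 UMIs, and 82.1% of C435A and 78.9% of WT calls with members of at least 200 UMIs. Heavy chains with at least 90% in a single segment were 100% of C435A cells at 20 UMIs, at 80% dominance and with the larger members. For light chains this share was 41.3% in the C435A library and 40.0% in the WT library at 80% dominance, 34.5% and 39.3% with the larger members, and 31.2% in the WT library without cells with other markers; for kappa alone it was 92.0% in the WT library at 80% dominance. The kappa-type share of Iglv1-dominated cells was 86.0% in the C435A library at 80% dominance and 75% in the WT library without cells with other markers. The largest combination held 21.7% of WT cells with the larger members. The Iglv1 difference was -7.05 points without cells with other markers and -1.64 points by summed UMIs, and the Igkv1-110 difference reversed to 1.28 points without cells with other markers. Values without cells with other markers rest on few WT cells. At least 2 monocyte and macrophage UMIs were held by 197 of 223 WT plasma cells.

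In B cells, the lambda share was 59.2% in the C435A library and 51.4% in the WT library with plasma-rule cells kept, 52.5% and 37.8% by summed UMIs, and in the WT library 36.7% at a minimum of 1 UMI and 39.3% with the larger members. The Iglv1 difference was 25.7 points at a minimum of 3 UMIs. Members past 2-fold in plasma cells numbered 8 from 200 UMIs and 17 without the highest cell of each segment. In B cells they numbered 9 from 20 UMIs, 1 from 200 UMIs and 2 without the highest cell. The share of all genes past 2-fold was not counted in these settings, so the counts cannot be set against it.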

Other observations

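Some rarer segments lay almost wholly in 1 library, and these were picked out after their values were seen. They lie just inside the member minimum, which counts the UMIs of both libraries together. A segment almost absent from 1 library therefore had to be high in the other to be kept. How far this rule shaped the pattern was not tested. Ighv3-8 had 53 UMIs over all barcodes of the C435A library and 0 in the WT library, where a count of 0 allows up to 3. In kept C435A cells its 49 UMIs lay in 14 cells, and the highest cell held 16.3% of them. Ighv3-1 had 51 UMIs in the C435A library and 1 in the WT library, and in kept C435A cells it was found in 9 cells. Ighv9-1 ran the other way, with 6 UMIs in the C435A library and 45 in the WT library, of which a single WT plasma cell held 97.7% of those in kept cells.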
